A study of Arabidopsis thaliana with 10 samples.

Results

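The WRKY genes encode a family of plant transcription factors, and their chromatin loops were examined in shoots of 2-week-old *Arabidopsis thaliana* seedlings. The family was taken as every protein-coding gene whose symbol is WRKY followed by a number, which gave 67 of the 27444 protein-coding genes on the nuclear chromosomes. Another 4 genes carry such a name only as a synonym and were not counted. The loops came from ChIA-PET, in which chromatin is cross-linked, pulled down with an antibody, joined end to end where DNA ends lie close together, and sequenced as paired-end tags (PETs). All 10 samples were untreated Col-0 shoots of the same age, with 2 labelled replicates for each of 5 antibodies. The antibodies recognised RNA polymerase II (RNAPII) and 4 histone marks. H3K4me3 sits at active promoters, H3K4me1 runs along transcribed gene bodies, H3K27me3 is left by Polycomb at silent genes, and H3K9me2 covers heterochromatin. A shoot holds many cell types, so a gene can carry an active mark in some cells and H3K27me3 in others, and these lists cannot tell such cells apart.

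A WRKY protein holds a WRKY domain, a DNA-binding fold with a zinc finger, and binds the W-box, a short element with the core TTGAC. Many WRKY genes respond to pathogens, to salicylic acid and to abiotic stress, downstream of mitogen-activated protein (MAP) kinases, and many hold W-boxes in their own promoters. Other members act in senescence, nutrient supply and development. RNAPII and H3K4me3 accompany transcription.

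A loop was counted for a WRKY gene when 1 of its anchors overlapped the stretch from 1 kb upstream of the transcription start site (TSS) to the gene end. Of the 59276 deposited loops, 409 had an anchor at a WRKY gene. Of the 67 genes, 54 had a loop in at least 1 list. The authors merged the replicates before loops were called, so each antibody gave 1 list and there was no spread between replicates. No test between antibodies or gene groups was therefore possible. Ranges given after a share are exact Clopper-Pearson 95% intervals that cover counting error only. Intervals on shares of loops treat loops of a shared anchor as independent and can be too narrow. The lowest PET count of a loop within and between chromosomes was 6 and 8 for H3K4me3, 4 and 6 for RNAPII, 6 and 8 for H3K4me1, and 5 and 7 for both H3K27me3 and H3K9me2.

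Promoters of members that led the RNAPII or the H3K27me3 list are shown first, because the anchors described below lay over them. Each is the 250 bases before the TSS, 5′ to 3′ on the strand of the gene, read from the RefSeq genome TAIR10.1, and capitals mark the W-box core TTGAC or its complement GTCAA. WRKY40 (chr1:30383311-30383560, plus strand), WRKY15 (chr2:9924636-9924885, plus strand) and WRKY33 (chr2:16107985-16108234, plus strand) were among the 6 members with the most RNAPII loops. WRKY6 (chr1:23019495-23019744, minus strand), WRKY29 (chr4:12291382-12291631, plus strand) and WRKY72 (chr5:4904040-4904289, plus strand) were among the 6 with the most H3K27me3 loops, where WRKY72 tied with 5 other genes at 6 loops and stood first among them by PETs. These 6 are the leading members whose window holds at least 1 core.
WRKY40: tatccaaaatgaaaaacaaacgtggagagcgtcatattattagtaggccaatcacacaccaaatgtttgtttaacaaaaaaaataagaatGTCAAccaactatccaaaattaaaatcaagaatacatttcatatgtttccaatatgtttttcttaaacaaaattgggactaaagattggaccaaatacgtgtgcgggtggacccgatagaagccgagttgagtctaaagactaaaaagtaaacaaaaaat
WRKY15: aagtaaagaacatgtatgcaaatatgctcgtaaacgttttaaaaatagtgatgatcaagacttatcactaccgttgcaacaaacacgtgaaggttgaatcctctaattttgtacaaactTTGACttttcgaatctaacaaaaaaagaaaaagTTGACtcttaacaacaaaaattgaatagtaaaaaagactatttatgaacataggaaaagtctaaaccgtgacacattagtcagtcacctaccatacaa
WRKY33: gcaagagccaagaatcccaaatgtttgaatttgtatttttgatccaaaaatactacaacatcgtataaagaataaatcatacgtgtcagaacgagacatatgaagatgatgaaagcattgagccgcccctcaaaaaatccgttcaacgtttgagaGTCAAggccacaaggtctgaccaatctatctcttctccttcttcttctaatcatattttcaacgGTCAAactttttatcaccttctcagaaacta
WRKY6: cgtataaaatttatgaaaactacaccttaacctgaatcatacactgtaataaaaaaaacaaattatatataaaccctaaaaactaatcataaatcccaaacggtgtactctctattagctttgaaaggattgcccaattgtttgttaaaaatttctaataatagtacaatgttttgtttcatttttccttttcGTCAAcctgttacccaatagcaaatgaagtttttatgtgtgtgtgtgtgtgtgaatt
WRKY29: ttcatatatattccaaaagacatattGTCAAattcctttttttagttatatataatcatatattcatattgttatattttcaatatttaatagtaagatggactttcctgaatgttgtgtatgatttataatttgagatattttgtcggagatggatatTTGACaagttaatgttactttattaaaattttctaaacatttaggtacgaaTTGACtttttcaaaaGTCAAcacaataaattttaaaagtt
WRKY72: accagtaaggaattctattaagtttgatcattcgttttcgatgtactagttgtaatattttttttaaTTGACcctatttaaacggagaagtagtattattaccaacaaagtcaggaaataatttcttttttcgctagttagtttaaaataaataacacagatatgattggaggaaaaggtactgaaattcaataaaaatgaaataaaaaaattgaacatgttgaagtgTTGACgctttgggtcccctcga
The RNAPII anchor covered all 250 bases in WRKY40, 220 in WRKY15 and 183 in WRKY33, and the H3K27me3 anchor covered the whole window in WRKY6, WRKY29 and WRKY72. WRKY29 had 4 cores and WRKY40 had 1. A core stood in the same window of 35 of the 67 WRKY genes (52.2%), against 44.9% of all protein-coding genes. A match is a string of letters and no evidence of binding.

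The family was spread over the lists unevenly. H3K27me3 loops reached 29 of the 67 WRKY genes (43.3%, 31.2 to 56), against 18.9% of all protein-coding genes, and the interval lay above that share. RNAPII loops reached 22 (32.8%, 21.8 to 45.4), against 27.1% of all genes, which lay inside the interval. H3K4me3 loops also reached 22 (32.8%, 21.8 to 45.4), against 43.5% of all genes, just inside the interval. H3K4me1 loops reached 7 (10.4%, 4.3 to 20.3), against 33.2% of all genes, and here the interval lay below. No WRKY gene had an H3K9me2 loop, which allows a share of up to 5.36%, against 1.41% of all genes.

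**Figure D1:**
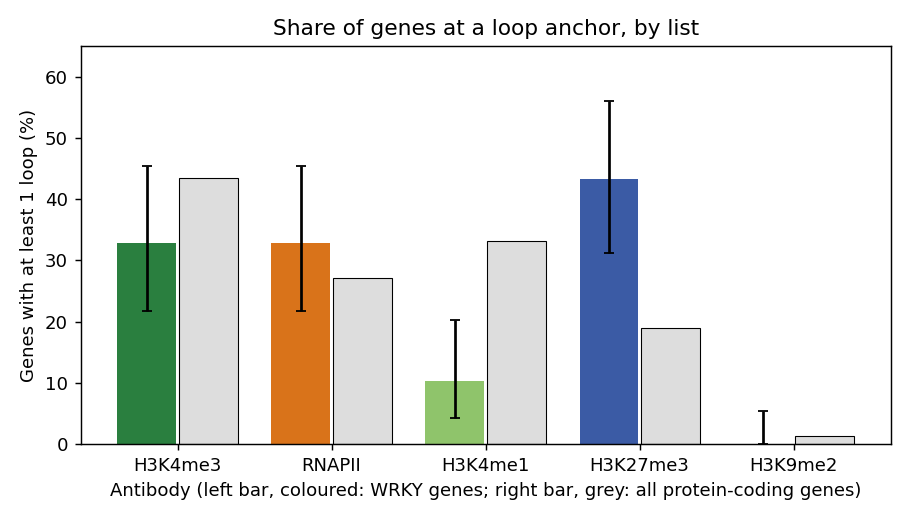
Percent of genes with at least 1 loop in each list, with WRKY genes (n = 67, coloured) left of all protein-coding genes (n = 27444, grey); bars on the WRKY columns are exact 95% intervals. The WRKY share is 43.3% against 18.9% for H3K27me3 and 10.4% against 33.2% for H3K4me1.

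Sorted by the kind of loop, 25 WRKY genes (37.3%, 25.8 to 50.0) had active loops only, meaning H3K4me3, RNAPII or H3K4me1, against 58.4% of all genes. H3K27me3 loops alone were found at 23 (34.3%, 23.2 to 46.9), against 13.4% of all genes. Both kinds were found at 6 (8.96%, 3.36 to 18.5), against 5.49%, and 13 (19.4%, 10.8 to 30.9) had no loop, against 21.5%. The 13 without a loop were WRKY13, WRKY27, WRKY28, WRKY30, WRKY41, WRKY45, WRKY60, WRKY61, WRKY64, WRKY66, WRKY67, WRKY74 and WRKY75. They include WRKY45 and WRKY75, known from phosphate supply, and WRKY60, the close relative of WRKY18 and WRKY40. A gene without a loop may still carry the mark, since the lists hold loops and not peaks.

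The classes are given next by the structural groups of the family, in which groups I, II and III differ in the number of WRKY domains and the type of zinc finger and the subgroups of II rest on sequence relation. Over all genes, 58.4% had active loops only and 13.4% had H3K27me3 loops only. Group I had 10 of 12 genes with active loops only (83.3%, 51.6 to 97.9) and 2, WRKY10 and WRKY58, with H3K27me3 loops only. Group IId, whose proteins bind calmodulin, had 6 of 7 with active loops only (85.7%, 42.1 to 99.6), the exception being WRKY74 with no loop. Group IIa had WRKY18 and WRKY40 with active loops only. Group IIb showed the other pattern, with 5 of 8 genes in the H3K27me3 class (62.5%, 24.5 to 91.5), WRKY6 and WRKY47 in both, and none with active loops only (up to 36.9%). Group IIc had 10 of 18 in the H3K27me3 class (55.6%, 30.8 to 78.5) and 2, WRKY43 and WRKY50, with active loops only (11.1%, 1.38 to 34.7). WRKY43 and WRKY50 had none when an anchor went only to the gene that covers most of it. For groups IIb and IIc these intervals lay apart from the shares of all genes, and for group I and group IId the active interval covered 58.4%. Group IIe was mixed, with 4 of 7 in the H3K27me3 class and WRKY22 and WRKY69 with active loops only. Its H3K27me3 share (57.1%, 18.4 to 90.1) also had an interval above 13.4%, and its active interval covered 58.4%. Of these 4 genes, WRKY29 had 0 H3K27me3 loops when an anchor went only to the gene that covers most of it. Group III had 5 of its 12 genes without a loop, 3 with active loops only, 2 with H3K27me3 loops only and 2 with both.

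**Figure D2:**
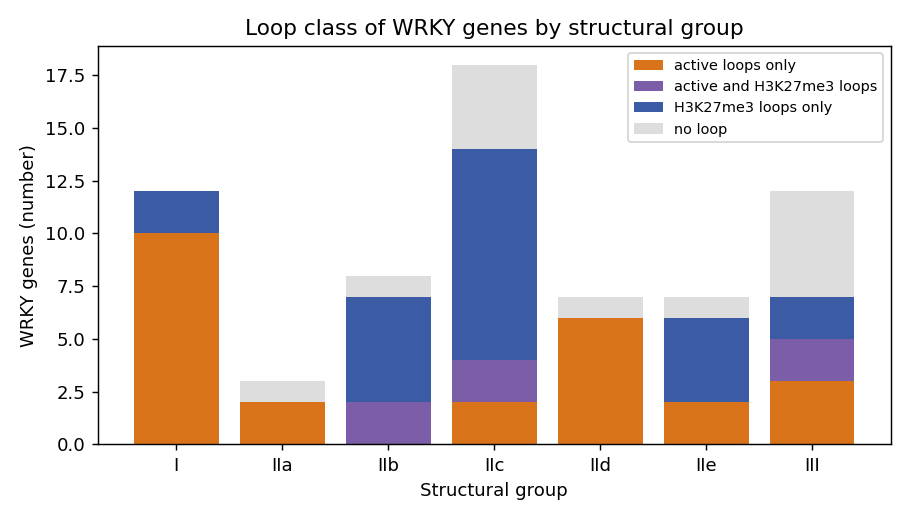
Number of WRKY genes in each structural group (horizontal axis) by loop class, with active loops (H3K4me3, RNAPII or H3K4me1) at the bottom of each column. Groups I and IId hold 10 of 12 and 6 of 7 genes with active loops only, and groups IIb and IIc hold none of 8 and 2 of 18.

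Domains were also counted from the annotated coding sequences. Of the 10 genes that encode 2 WRKY domains, 9 had active loops only and WRKY58 had H3K27me3 loops only. The 45 genes with 1 domain and a C2H2 zinc finger had 13 in the active class, 20 in the H3K27me3 class, 4 in both and 8 with no loop. The 12 genes with a C2HC finger, which are group III, had 3, 2, 2 and 5 in the same order. Over all genes these classes held 58.4%, 13.4%, 5.49% and 21.5%. WRKY10 and WRKY19 stand in group I by convention and were annotated with 1 domain. By position, active loops only were found at 2 of 15 WRKY genes on chromosome 1, 8 of 15 on chromosome 2, 3 of 6 on chromosome 3, 9 of 16 on chromosome 4 and 3 of 15 on chromosome 5. H3K27me3 loops only were found at 7, 4, 2, 3 and 7 of these genes, in the order of the chromosomes. The shares of all genes on each chromosome were not counted, so no difference between chromosomes can be read from these numbers.

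Within the family, a few members held most of the RNAPII loops. Summed over genes there were 196 RNAPII loops, and the 6 leading members held 140 of them (71.4%). Loops were also uneven over all genes with an RNAPII loop, with a median of 3 and a maximum of 198. No matching share was counted there, so the concentration cannot be called a trait of the family. WRKY40, a repressor of basal defence and of abscisic acid responses, had 38 loops with 436 PETs. WRKY18, its partner in defence, had 33 loops with 384 PETs. WRKY22, a target of flagellin signalling, had 21 loops with 177 PETs. WRKY15, known from responses to oxidative stress, had 19 loops with 134 PETs, and WRKY33, the regulator of camalexin synthesis, had 15 loops with 132 PETs. WRKY48, a repressor of basal defence, had 14 loops with 150 PETs, and WRKY26, which acts in heat tolerance with WRKY25 and WRKY33, had 11 loops with 81 PETs. These 7 genes with 10 or more RNAPII loops made up 10.4% of the family (4.3 to 20.3), against 6.30% of all genes, and the interval covers that share. By number of RNAPII loops, WRKY40 ranked 222 and WRKY18 ranked 284 among all genes.

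The remaining RNAPII members had fewer. WRKY46 had 8 loops, WRKY11 and WRKY69 had 7 each, WRKY25 had 6, WRKY70 had 5 and WRKY7 had 3. Another 9 genes had a single RNAPII loop, among them WRKY53, the senescence regulator. The median over the 22 genes was 5.5 loops, against 3 over all genes with an RNAPII loop. Several of these anchors covered a neighbour, and with each anchor given only to the gene that covers most of it WRKY46 had 0 RNAPII loops and WRKY69 had 2. WRKY19, WRKY21 and WRKY32 then also had 0, and the 7 leading members kept 10 or more.

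**Figure D3:**
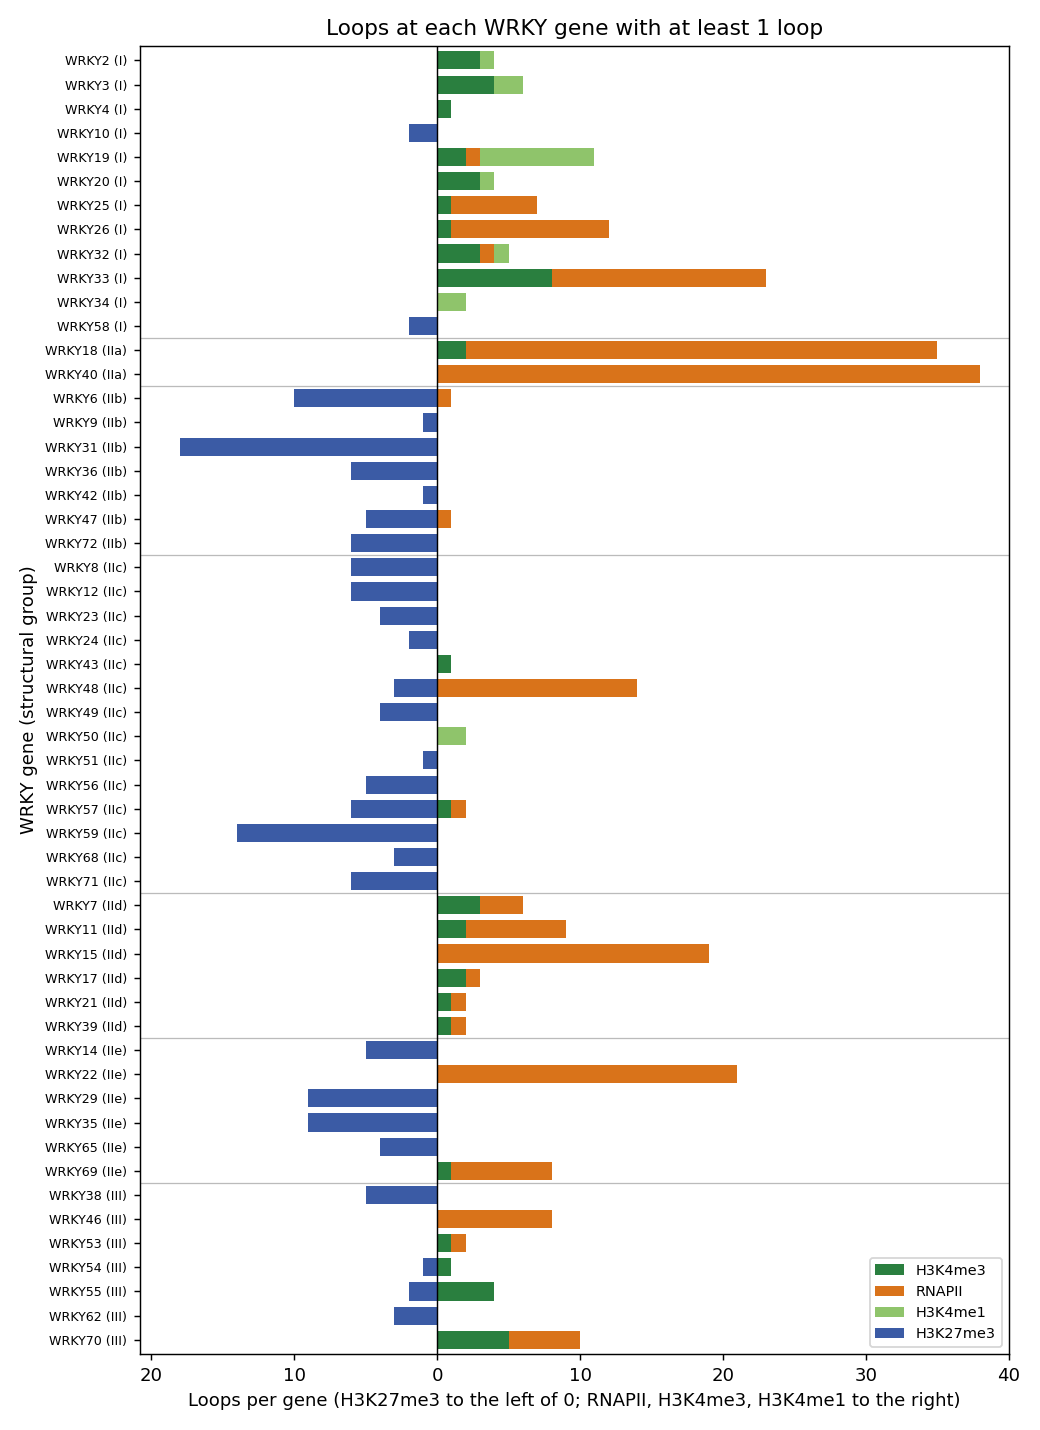
Loops at each of the 54 WRKY genes with a loop, ordered by structural group, with H3K27me3 loops to the left of 0 and H3K4me3, RNAPII and H3K4me1 loops stacked to the right. WRKY40 has 38 RNAPII loops and WRKY31 has 18 H3K27me3 loops, and few genes have bars on both sides.

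The number of loops went with the number of tags on the anchor. The RNAPII anchor of WRKY40 held 17572 tags, that of WRKY18 held 12209, and that of WRKY33 held 10614. The median of WRKY anchors was 2269, against 1199 over all gene anchors of that list. Across the 22 members, Spearman's rho between loops and anchor tags was 0.94, a description over genes that share a library and a depth. The same rho was 0.79 over the 29 H3K27me3 members and 0.70 over the 22 H3K4me3 members. The part of anchor enrichment in the loop counts was not tested. The anchor of WRKY40 also covered its neighbour AT1G80850, and 12 of the 23 RNAPII anchors at WRKY genes covered another gene body.

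RNAPII loops of the family often joined distant anchors. Of 194 distinct loops with 1773 PETs, 99 joined different chromosomes (51%, 43.8 to 58.3), against 42.9% of all RNAPII loops. WRKY18 alone had 28 loops between chromosomes and WRKY40 had 23, so this share rests largely on the anchors of these genes. The interval treats loops of a shared anchor as independent, and no difference of the family from the list can be read from it. The median span of the loops within a chromosome was 844 kb, against 529 kb over the list, but the shares under 100 kb (45.3%, against 44.7%) and over 1 Mb (48.4%, against 46.5%) were close to those of the list. Few of these loops passed a stricter limit, since 25 of 194 (12.9%) had an FDR below 0.001, against 20.6% of the list. No RNAPII loop between chromosomes passed that limit, and WRKY18, WRKY33 and WRKY26 had no loop that did. Of the 25, a single loop spanned over 100 kb, from WRKY40 to the sucrose transporter gene SUC2 with 6 PETs and an FDR of 0.000958.

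**Figure D4:**
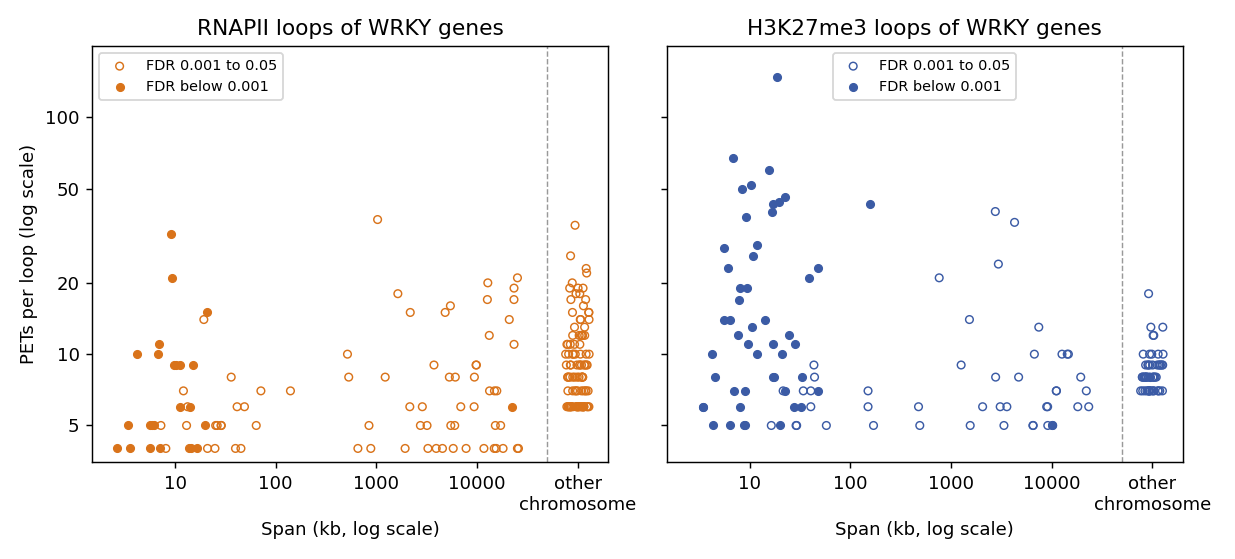
PETs per loop (log axis) against span in kb (log axis) for RNAPII (left) and H3K27me3 (right) loops of WRKY genes, with loops between chromosomes beyond the dashed line, jittered sideways. Filled points have an FDR below 0.001 and are mostly short, and the strongest is a 148-PET H3K27me3 loop spanning 18.7 kb.

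The RNAPII anchors met 393 partner genes. Those named in this and the next paragraph were chosen after their values were seen, not by PETs alone, with no count of their kind. WRKY40 met anchors on all 5 chromosomes. Its strongest RNAPII loop, with 37 PETs over 1028 kb (FDR 0.0327), reached AT1G78070. The next reached an anchor over XTH25 and TCH4, which encode cell wall enzymes, with 26 PETs, and an anchor over HAM4, HVA22K and GBF1, the last a bZIP factor that binds G-boxes, with 23 PETs. Its loop to an anchor over AT1G20430 and COR47, a cold-induced dehydrin gene, had 19 PETs. WRKY18 had 28 of its 33 loops between chromosomes. It met AT1G61890 with 35 PETs, the polyubiquitin gene UBQ11 with 20 PETs, and an anchor over EDA25 and JAZ6, a repressor of jasmonate signalling, with 19 PETs. All 33 WRKY18 loops had an FDR between 0.00707 and 0.0475.

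WRKY22 met LOX3, a lipoxygenase gene of jasmonate synthesis, with 19 PETs. It met an anchor over AT2G17830 and the dehydration-responsive ERD7, and an anchor over BAM1, with 17 PETs each. A loop to BIN2, the kinase of brassinosteroid signalling, had 9 PETs. WRKY15 met the same ERD7 anchor with 15 PETs over 2170 kb, and its loop with the lowest FDR had 10 PETs over 4.14 kb (FDR 2.29e-21). WRKY33 met an anchor over AT4G29780 and AT4G29790 with 22 PETs. It met an anchor over AT1G01130 and CIPK9, a kinase gene of potassium supply, with 20 PETs. Both anchors lay on other chromosomes. WRKY48 had the RNAPII loop with the lowest FDR in the family, with 32 PETs over 9.02 kb to the prefoldin gene PFD3 (FDR 4.49e-54). WRKY26 met an anchor over SAT32 and the calcium pump gene ACA1 with 12 PETs. It met AT5G05600 with 8 PETs and AOS, an enzyme gene of jasmonate synthesis, with 7 PETs. WRKY70, a regulator of salicylic acid responses, met AT3G56410 with 21 PETs over 9.24 kb (FDR 1.14e-28).

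Some of these partners were met by more than 1 member. Of 188 RNAPII partner anchors, 6 were met by 2 WRKY genes and none by more. The anchor of AT1G61890 was met by WRKY18 with 35 PETs and by WRKY57 with 5 PETs. The anchor over AT2G17830 and ERD7 was met by WRKY22 with 17 PETs and by WRKY15 with 15 PETs. The anchor over scpl50 and QSOX1 was met by WRKY40 with 21 PETs and by WRKY48 with 11 PETs, and that of ENODL2 by WRKY18 with 18 PETs and by WRKY22 with 12 PETs. The anchor over SHA1 and NAC102, a NAC transcription factor gene, was met by WRKY48 with 16 PETs and by WRKY26 with 11 PETs. That of AT3G15800 and AT3G15810 was met by WRKY40 with 14 PETs and by WRKY18 with 9 PETs. These partners had many loops of their own, from 27 at the scpl50 anchor to 125 at the AT1G61890 anchor, of which the WRKY contacts were 2. The WRKY40 anchor over COR47 was not met by another member, but WRKY46 met the anchor over its neighbour ERD10 with 8 PETs.

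H3K27me3 loops were more evenly shared among the members, which was also not compared with all genes. Summed over genes there were 149, of which the 6 leading members held 66 (44.3%), and the median over the 29 genes was 5 loops, against 3 over all genes with an H3K27me3 loop. WRKY31 had 18 loops with 455 PETs, WRKY59 had 14 loops with 191 PETs, and WRKY6, which represses phosphate export and acts in senescence, had 10 loops with 121 PETs. WRKY35 had 9 loops with 158 PETs, WRKY29, a MAP kinase target in flagellin signalling, had 9 loops with 152 PETs, and WRKY72, known from basal defence, had 6 loops with 112 PETs. The 3 genes with 10 or more loops made up 4.48% of the family (0.933 to 12.5), against 2.52% of all genes, which lay inside the interval. The median width of the H3K27me3 anchors at WRKY genes was 4854 bp, against 3326 bp over all gene anchors, and their median tag count was 3196, against 1838. The anchor of WRKY31 was 25216 bp wide, held 18427 tags and covered 4 other genes, RHS14 among them, so its loops cannot be given to WRKY31 alone. In all, 8 of the 29 H3K27me3 anchors covered another gene body, among them those of WRKY59 (CYP96A5 and AT2G21920), WRKY35 (AT2G34820 and RALFL20) and WRKY29 (GH9B15). With each anchor given only to the gene that covers most of it, WRKY29 and WRKY38 had no H3K27me3 loop left, against 9 and 5, and WRKY59 and WRKY35 stayed members.

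These loops had shorter spans and lower FDRs than the RNAPII loops of the family, under different PET minimums. Of 148 distinct loops with 1956 PETs, 53 joined different chromosomes (35.8%, 28.1 to 44.1), against 23.4% of the list. The median span within a chromosome was 32 kb, against 24.3 kb, and 58 of 95 such loops spanned under 100 kb. An FDR below 0.001 was reached by 51 (34.5%), against 47.2% of the list. Of those 51, the single one between chromosomes was at WRKY6, with 8 PETs to an anchor outside genes (FDR 4.65e-04).

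The strongest H3K27me3 loop of WRKY31 had 148 PETs over 18.7 kb to an anchor that holds SCRL26 and AT4G22110 (FDR 1.01e-161). WRKY56 had 67 PETs to SRP3 over 6.76 kb (FDR 2.12e-91), and WRKY29 had 60 PETs to an anchor with CORI3 over 15.6 kb. WRKY35 had 52 PETs to AT2G34810 over 10.2 kb, and WRKY59 had 50 PETs to AT2G21920 and AT2G21930 over 8.39 kb.

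The H3K27me3 anchors met 318 partner genes, and the well-known genes given here were chosen from them after their values were seen, with no count of their kind. WRKY6 met the meristem gene STM with 23 PETs over 48.1 kb (FDR 8.01e-05). It met an anchor over AT1G24577 and DRNL, an organ initiation gene, with 10 PETs over 14301 kb (FDR 0.0487). WRKY59 met an anchor over AT2G17960 and WUS, the stem cell regulator, with 14 PETs over 1526 kb (FDR 0.0257). It met an anchor over AGL48 and ABI4 with 13 PETs (FDR 0.0217). WRKY35 met EIR1, the auxin transporter gene also called PIN2, with 12 PETs (FDR 0.0208) and the florigen gene FT with 7 PETs (FDR 0.0302), both on other chromosomes. WRKY72 met HB-3 with 26 PETs over 10.9 kb (FDR 2.12e-19) and PUCHI, which acts in lateral root formation, with 9 PETs over 1262 kb. WRKY10, which acts in endosperm growth, met LAS, a gene of axillary meristems, with 19 PETs over 9.41 kb (FDR 1.72e-18). WRKY12, a regulator of secondary wall formation, met the stomatal gene SPCH with 9 PETs (FDR 0.0353), and WRKY42 met BBM, an embryogenesis gene, with 7 PETs (FDR 0.0414).

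Of 146 H3K27me3 partner anchors, 3 were met by 2 WRKY genes. The anchor over XTH26 was met by WRKY12 with 12 PETs and by WRKY36 with 9 PETs. VIM5 was met by WRKY48 with 8 PETs and by WRKY65 with 7 PETs, and the anchor over AT4G37850 by WRKY62 with 8 PETs and by WRKY56 with 7 PETs. No partner anchor in the H3K4me3 or H3K4me1 list was met by more than 1 WRKY gene.

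The positions of the anchors differed between the lists. In the H3K4me3 list the median distance of the anchor midpoint into the gene from the TSS was 648 bp, against 392 bp over all gene anchors. RNAPII anchors lay further into the gene, at 1562 bp, against 1364 bp, and H3K4me1 anchors at 2144 bp, against 1718 bp. H3K27me3 anchors were centred at 1013 bp, against 234 bp, and were the widest. In most of the leading RNAPII members the anchor started near the TSS and ran past the gene end, and in WRKY19, WRKY21, WRKY32, WRKY39 and WRKY57 it lay only at the gene end.

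**Figure D5:**
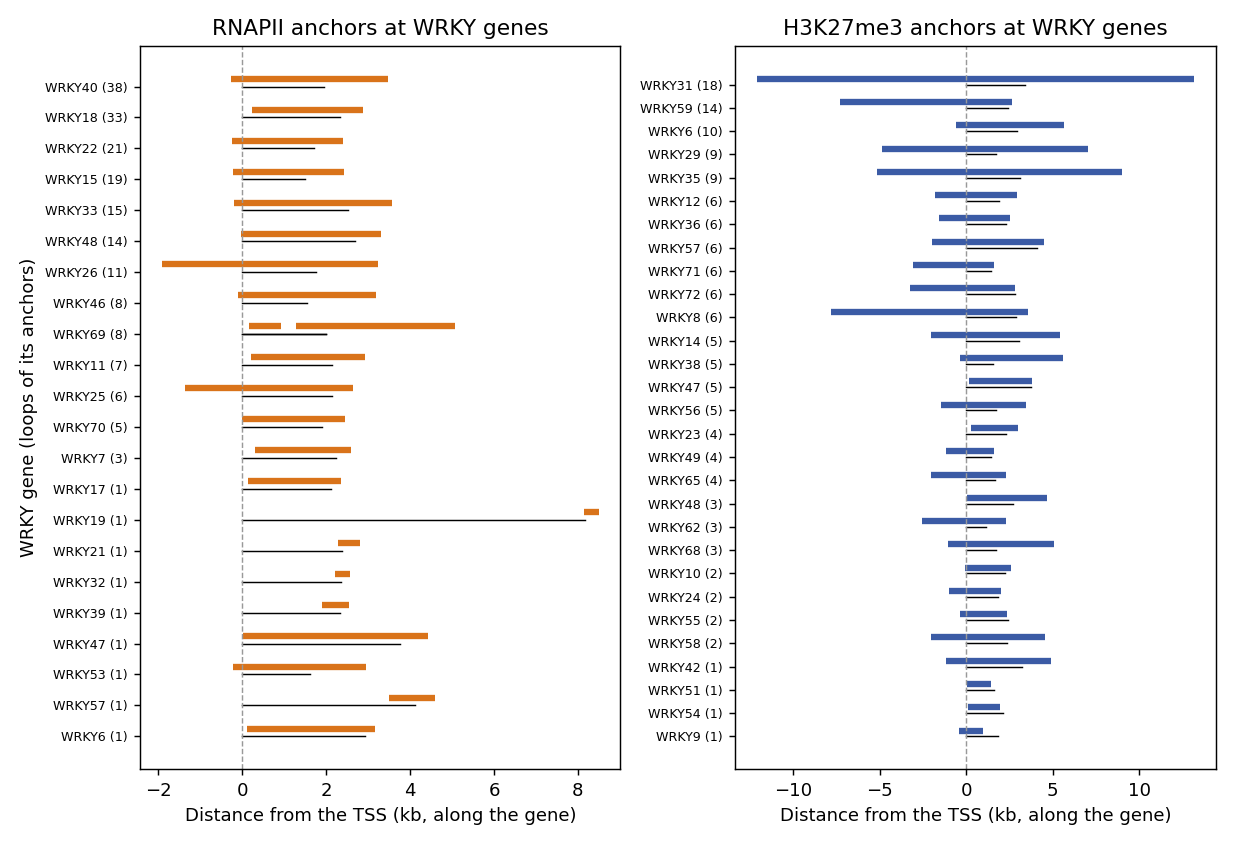
Extent of each loop anchor (coloured bar) and of the gene (black line) in kb from the TSS along the gene, for RNAPII (left) and H3K27me3 (right) members ordered by loops. The horizontal scales differ between the panels, and the WRKY31 anchor of 25216 bp extends far beyond the gene on both sides.

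H3K4me3 loops were few per gene and short. The 22 genes had a median of 2 loops, equal to that of all genes with such a loop, and 10 had a single loop. WRKY33 had 8 loops with 63 PETs, WRKY70 had 5 with 41 PETs, WRKY55 had 4 with 34 PETs, WRKY3 had 4 with 31 PETs, WRKY2, which acts in the polarity of the zygote, had 3 with 27 PETs, and WRKY32 had 3 with 24 PETs. Of 50 distinct loops, 2 joined different chromosomes (4.00%, 0.488 to 13.7), against 8.61% of the list, and the median span was 8.05 kb, against 11.3 kb. An FDR below 0.001 was reached by 42 of them (84.0%), against 61% of the list. No WRKY gene had 10 or more H3K4me3 loops, against 3.09% of all genes. Of the 24 H3K4me3 anchors at WRKY genes, 6 covered another gene body. With each anchor given only to the gene that covers most of it, WRKY32 had 1 H3K4me3 loop, and WRKY19, WRKY43 and WRKY55 had 0.

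WRKY40 and WRKY22 had no H3K4me3 loop, although they had 38 and 21 RNAPII loops. RNAPII loops without H3K4me3 loops were found at 7 genes, WRKY6, WRKY15, WRKY22, WRKY40, WRKY46, WRKY47 and WRKY48. They made up 31.8% of the RNAPII members (13.9 to 54.9), against 30.0% of all genes with an RNAPII loop, so the family was close to the background here. H3K4me3 and RNAPII loops occurred together at 15 genes, and H3K4me3 loops without RNAPII loops at 7, WRKY2, WRKY3, WRKY4, WRKY20, WRKY43, WRKY54 and WRKY55.

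H3K4me1 loops numbered 17 at 7 genes. WRKY19, which encodes a WRKY domain fused to a resistance protein and a kinase, had 8 loops with 79 PETs. Its strongest, with 28 PETs over 6.36 kb (FDR 3.15e-28), joined the body of WRKY19 to an anchor that lies over its upstream neighbour AT4G12010 and touches WRKY19 only through the 1 kb before its TSS. WRKY3 had 2 loops with 63 PETs, of which 55 PETs were in a loop of 19.4 kb to AT2G03270 and AT2G03280 (FDR 1.14e-111). WRKY50 had 2 loops with 17 PETs, WRKY34, a pollen gene, had 2 with 12 PETs, WRKY20 had 1 with 8 PETs, and WRKY2 and WRKY32 had 1 each with 6 PETs. Of the 7 genes, 6 were in group I. WRKY50, the other, had 0 H3K4me1 loops when each anchor went only to the gene that covers most of it. No gene had 10 or more, against 3.97% of all genes.

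Active and H3K27me3 loops met at WRKY6, WRKY47, WRKY48, WRKY54, WRKY55 and WRKY57. With 8 PETs in every list, only WRKY48 and WRKY57 kept loops of both kinds. With an FDR below 0.001, WRKY6 had 0 RNAPII loops and WRKY57 had 0 H3K27me3 loops, and the others kept both kinds. WRKY48 had 14 RNAPII loops and 3 H3K27me3 loops, and its 2 anchors shared 3239 bp. WRKY6 had 1 RNAPII loop and 10 H3K27me3 loops, with 3052 bp shared, and WRKY47 had 1 and 5 loops, with 3638 bp shared. WRKY57 had 1 RNAPII, 1 H3K4me3 and 6 H3K27me3 loops, and its H3K27me3 anchor shared 996 bp with the RNAPII and 1063 bp with the H3K4me3 anchor. WRKY54, which acts with WRKY70 in salicylic acid signalling and senescence, had 1 loop of each kind, with 641 bp shared. At WRKY55 the anchors of its 4 H3K4me3 and 2 H3K27me3 loops lay 367 bp apart. That H3K4me3 anchor lies over the neighbour CTEXP, and with each anchor given only to the gene that covers most of it WRKY55 had no H3K4me3 loop and 5 genes had both kinds. Whether both marks were present in the same cells cannot be told apart from a mixture of cell types.

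Contacts between members were rare. Of 2211 possible pairs of WRKY genes, 3 were joined by a loop. WRKY54 and WRKY55 lie 920 bp apart on chromosome 2 and were joined in the H3K4me3 list with 6 PETs over 6.09 kb (FDR 8.88e-08) and in the H3K27me3 list with 6 PETs over 3.41 kb (FDR 1.92e-08). The H3K4me3 loop runs from WRKY54 to an anchor over the body of CTEXP that touches only the upstream stretch of WRKY55, whereas both H3K27me3 anchors lie over the WRKY genes. In the RNAPII list WRKY15 on chromosome 2 met WRKY18 on chromosome 4 with 9 PETs (FDR 0.0439), and WRKY22 on chromosome 4 met WRKY26 on chromosome 5 with 7 PETs (FDR 0.0123). The share of WRKY pairs joined was 0.0452% for H3K4me3, against 0.00892% of all gene pairs, 0.0905% for RNAPII, against 0.0159%, and 0.0452% for H3K27me3, against 0.00721%. With 1 or 2 pairs in each list, these shares are too sparse to rank. WRKY18 and WRKY40, which act together, shared a partner anchor but no loop. WRKY64 and WRKY67, the other pair of members within 20 kb, lie 3858 bp apart and had no loop.

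By known role, the 22 members linked to immunity and salicylic acid had 12 with active loops only, 5 with H3K27me3 loops only, 2 with both and 3 with none. The active share of 54.5% (32.2 to 75.6) was close to the 58.4% of all genes, and the H3K27me3 share of 22.7% (7.82 to 45.4) covered the 13.4% of all genes. The other roles hold 5 to 8 genes each, so their intervals are wide. The immune members held 152 of the 196 RNAPII loops counted per gene, with 38 at WRKY40 and 33 at WRKY18. No such count was made for other genes, so no trait of the role can be read from it. WRKY22 and WRKY29, which act together downstream of MAP kinases, differed in class, with 21 RNAPII loops at WRKY22 and 9 H3K27me3 loops at WRKY29, but WRKY29 had 0 when each anchor went only to the gene that covers most of it. WRKY38 and WRKY62, related genes of salicylic acid signalling, both had H3K27me3 loops only, and the 5 of WRKY38 also fell to 0 under that rule. The 8 senescence members had 3 with active loops only, 3 with both, 2 with none and none with H3K27me3 loops only. Their share with both (37.5%, 8.52 to 75.5), from WRKY6, WRKY54 and WRKY57, had an interval above the 5.49% of all genes. It did not hold under stricter limits. With 8 PETs in every list, WRKY6 had 0 RNAPII loops and WRKY54 had 0 loops of either kind. With an FDR below 0.001, WRKY6 had 0 RNAPII loops and WRKY57 had 0 H3K27me3 loops. The 7 developmental members had WRKY2 and WRKY34 with active loops only, WRKY10, WRKY12, WRKY23 and WRKY71 with H3K27me3 loops only, and WRKY13 with none. Their H3K27me3 share (57.1%, 18.4 to 90.1) had an interval above 13.4%. The 5 members of mineral nutrition had WRKY46 in the active class, WRKY42 in the H3K27me3 class, WRKY6 in both, and WRKY45 and WRKY75 with no loop. The remaining class shares of the senescence, development and nutrition members had intervals that covered the shares of all genes.

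Genes of the pathways in which WRKY proteins act were looked up from a list of 25 names, of which 24 matched a single gene. Active loops only were found at 19, H3K27me3 loops only at CYP71A13 and PR1, both at MPK4, and none at ICS1 and PAD3, against 58.4%, 13.4%, 5.49% and 21.5% of all genes in the same order. The MAP kinase gene MPK3 had 16 RNAPII loops and the upstream kinase gene MEKK1 had 15. MKK4 had 10 RNAPII and 10 H3K4me3 loops, and MKK5 had 10 RNAPII and 9 H3K4me3 loops. EDS1 and PAD4, partners in resistance signalling, had 7 and 5 RNAPII loops. The salicylic acid marker PR1 had a single H3K27me3 loop with 7 PETs, and CYP71A13, an enzyme gene of camalexin synthesis downstream of WRKY33, had 3 with 23 PETs. A single loop joined a member to these genes, an H3K27me3 loop of 7 PETs (FDR 0.0305). It ran from the wide WRKY31 anchor to an anchor over MPK4, AT4G01380 and AT4G01390, so it cannot be given to WRKY31 or MPK4 alone. MPK4 had no other H3K27me3 loop, so its place with both kinds rests on this loop.

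The W-box in its longer form, TTGACC or TTGACT on either strand, which contains the core, stood within 1 kb upstream of 52 of the 67 WRKY genes (77.6%), against 67.3% of all protein-coding genes. It was present at 20 of the 22 members with an RNAPII loop (90.9%), against 69.1% of all genes with such a loop, and at 21 of the 29 with an H3K27me3 loop (72.4%), against 66.7% of all genes with such a loop. WRKY17 had 7 such matches. The core alone stood within 1 kb of 88.1% of WRKY genes, against 88.1% of all genes. In the 250 bases before the TSS the longer form stood at 35.8% of WRKY genes, against 28.4% of all genes. There it stood at 40.9% of the RNAPII members, against 30.3% of all genes with an RNAPII loop. For members with an H3K27me3 loop the share was 24.1%, against 27.7% of all genes with such a loop. The G-box, CACGTG, stood within 1 kb of 18 WRKY genes (26.9%), against 14.8% of all genes. The share was 31.8% of the RNAPII members, against 17.9% of all genes with an RNAPII loop. It was 27.6% of the H3K27me3 members, against 13.4% of all genes with an H3K27me3 loop. In 250 bases the G-box stood at 6 WRKY genes (8.96%), against 6.49% of all genes. There it stood at 1 of the 22 RNAPII members (4.55%), against 8.2% of all genes with an RNAPII loop. For H3K27me3 members the share was 6.90%, against 5.62% of all genes with such a loop. The motif shares carry no intervals.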

How the data were processed

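ChIA-PET loops of Col-0 shoots were analysed for 5 antibodies. Per the study's methods, the authors ran ChIA-PET Tool V3, mapped reads to TAIR10, took ChIP-seq peaks as given anchors, pooled replicates, and filtered the loops by FDR (0.05) and by a PET minimum that depended on depth. Mapper settings are not given in the sources used here. Deposited PET and anchor tag counts are whole numbers with no normalization. The p-values (FDR) are those the authors deposited, and served to describe loops and to set a stricter limit. The names of the lists carry 4 library numbers for H3K4me3 and H3K4me1, 3 for H3K27me3 and 2 for RNAPII and H3K9me2, so depth may differ between lists. The lists held between 101711 (H3K27me3) and 150731 (H3K4me1) PETs in loops, which is not their sequencing depth.

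Coordinates were read as 1-based TAIR10 positions and set against the RefSeq annotation TAIR10.1, whose nuclear chromosomes have the same lengths. An overlap of 1 bp tied an anchor to a gene, and an anchor counted for every gene it touched. Loops from an anchor to itself and 5 mitochondrial loops were left out. Structural groups and roles came from textbook lists. WRKY45 had been listed in group I and was moved to IIc because its annotated protein has 1 domain. No protein table was used here, so domains were counted from the annotated coding sequences. Named were the 6 members with the most loops in each list, joined pairs, members of both classes, members with no loop, and shared partners; other partners were chosen after their values were seen, as was the limit of 10 loops. Members and lists were chosen with earlier results of these data known. The code was tested on simulated loops. Python 3.11.15, pandas 2.3.3, numpy 2.4.6 and scipy 1.17.1 were used.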

Additional observations from a re-analysis of the deposited data

How the results depend on the processing

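No paired analysis was possible because the lists pool the replicates, and for the same reason no replicate could be left out. Of 94 values under an alternative, 74 stayed within their limits and 20 moved, and the causes of the moves were not tested. The H3K27me3 members, 29 of 67, numbered 23 to 29 under every alternative run, against 10.1% to 19% of all genes. With 8 PETs in every list, members with a loop numbered 14 for H3K4me3 (30.7% of all genes had one), 14 for RNAPII (15% of all genes) and 4 for H3K4me1 (25.3% of all genes), members with 10 or more RNAPII loops to 3, the RNAPII share between chromosomes was 64.6%, and 1 pair, WRKY15 and WRKY18, was joined. With an FDR below 0.001, no member had 10 or more RNAPII loops (0) or H3K27me3 loops (0), the median of H3K27me3 loops was 2, the share between chromosomes was 0 for H3K4me3, 0 for RNAPII, 0 for H3K4me1 and 1.96% for H3K27me3, and 1 pair, WRKY54 and WRKY55, was joined. H3K4me1 members numbered 3 with promoters only and 11 with synonyms. Members with 5 or more loops numbered 12 for RNAPII and 15 for H3K27me3. With 15 or more, there was 1 for H3K27me3, and with self-loops counted, 5 had 10 or more. The limits of 5, 10 and 15 loops were chosen after seeing the data. The RNAPII degrees of the leading members therefore rest on loops with an FDR between 0.001 and 0.05.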
